A study of Mus musculus with 6 samples.

Results

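Hepatic stellate cells are the pericytes of the liver sinusoid and its main store of retinyl esters. In the quiescent state they hold lipid droplets filled with vitamin A. When they are activated, they lose these droplets, divide in response to platelet-derived growth factor (PDGF), become contractile and secrete fibrillar collagen, and transforming growth factor beta (TGF-β) drives this last step. The 10 genes described here were taken as a list of names that follows this course. They are the fibrillar collagen genes Col1a1, Col1a2 and Col3a1, the basement membrane collagen gene Col4a1, the protease inhibitor gene Timp1, the contractile and filament genes Acta2 and Des, the vitamin A esterification gene Lrat, the PDGF receptor gene Pdgfrb and the cytokine gene Tgfb1. All 10 were found by their Ensembl identifiers among the 55357 genes counted, and 9 of them had enough counts to be among the 14433 genes tested. Timp1 did not.

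Liver RNA was sequenced from male wild-type C57BL/6J mice of 8 to 9 weeks. All mice were fed a control diet with 10% of kcal from fat for 4 days and then a high-fat diet (HFD) with 60% for 3 days, and were gavaged on each of the 7 days, so both groups were HFD-fed and no library came from mice kept on the control diet. The vehicle group received 2.5% Tween-80 and the esculetin group received esculetin, a coumarin, for which the annotations give 180 mg/kg/d in the titles and the treatment protocol but 90 mg/kg/d as the treatment, and the names of the count columns also carry 180. Because of this conflict no dose is attached to the group here. Each group had 3 libraries, and each library pooled the livers of 2 mice. The comparison asks which of these genes esculetin administration altered in liver under a short lipid load. It is a comparison in livers with no fibrotic injury in the design, and in whole tissue fewer stellate cells and less RNA per cell cannot be told apart.

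Total counts lay between 27957713 and 34920922, with all 3 esculetin libraries above the 3 vehicle libraries. Levels are given as CPM (counts divided by the TMM-adjusted library size and put on a common scale), and 3 counts corresponded to 0.0865 to 0.109 CPM. Hepatocyte markers summed to 111173 to 116772 CPM in the vehicle libraries and to 105674 to 115673 CPM in the esculetin libraries, and stellate cell markers were present, with 27 of 28 tested and none at 0 in all 6 libraries. Tagln, a marker of smooth muscle and of activated stellate cells, was at 0.149 to 0.548 CPM, a gene singled out after its values were seen. A gene was called when edgeR's quasi-likelihood test gave an unadjusted p under 0.05 and the fold change was over 1.5, the thresholds used in the study.

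Of the 9 genes tested, 1 was called, Des, which was higher with esculetin. Among all genes tested 3.13% were called, 1.37% higher and 1.76% lower. At an unadjusted p under 0.05 and any fold there were 2 of the 9, Des higher and Col4a1 lower, against 11.9% of all genes tested. None had an adjusted p under 0.05 with edgeR, DESeq2 or limma-voom, and over all genes this was reached by 0.0416% with edgeR (6 genes), by 193 genes with DESeq2 and by 5 with limma-voom. The groups did not overlap for 3 of the 9 genes, with Des above and Col4a1 and Pdgfrb below vehicle in all esculetin libraries, against 17.4% of all genes. The median log2 fold change of the 9 genes was -0.12, beside -0.01 over all genes tested, with 2 genes higher and 7 lower.

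**Figure D1:**
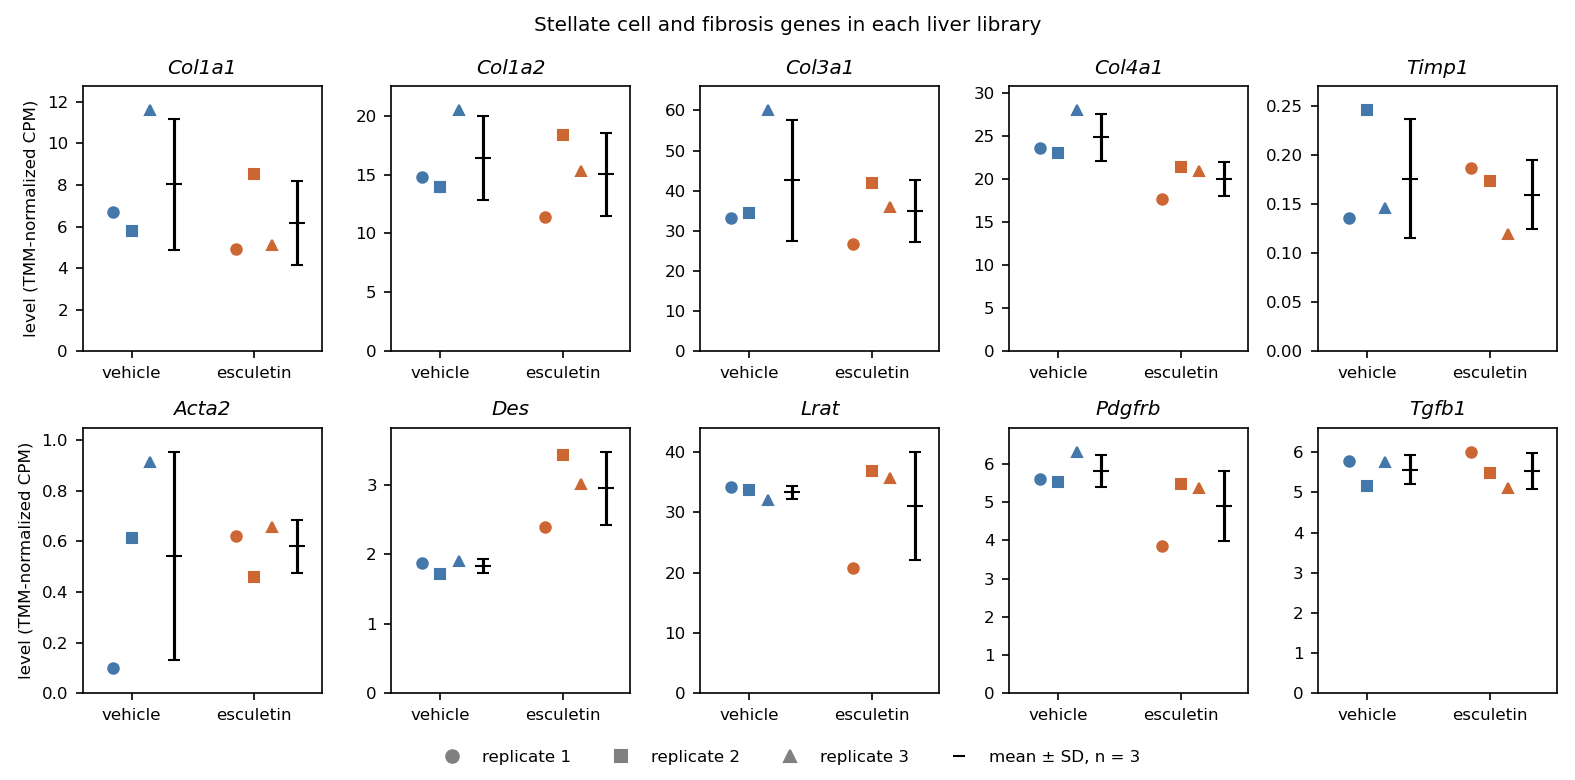
Level of each of the 10 genes in every library (vertical axis, TMM-normalized CPM from 0, a scale for each gene). Points are libraries with the marker giving the replicate number, which does not pair libraries across groups, and black bars are the mean ± SD of 3 libraries; only Des lies higher with esculetin without overlap (1.72 to 1.90 against 2.39 to 3.43 CPM), while Col4a1 and Pdgfrb lie lower without overlap.

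The regions before the RefSeq starts of Des, Lrat and Col3a1 are shown because these genes stand for the filament, vitamin A and fibrillar collagen roles, and because Des was called while the other genes did not pass the test. Of the 10 genes, 8 had an entry in the RefSeq promoter table (build GRCm38). The stretches run from base 250 to base 70 before the RefSeq start, each 181 bases, and each matched GRCm39 at 1 place and overlapped no annotated exon. Those of Lrat and Col3a1 lie in front of the annotated gene, while that of Des lies inside the longer GENCODE span of the gene. Capitals mark matches on either strand. The motifs were an E-box, spelled CANNTG, the CCAAT box, a GC box, spelled GGGCGG, and the letters TATAA. A CArG box, which serum response factor binds in contractile genes, was also searched for.
Des, chr1:75336686-75336866, plus strand: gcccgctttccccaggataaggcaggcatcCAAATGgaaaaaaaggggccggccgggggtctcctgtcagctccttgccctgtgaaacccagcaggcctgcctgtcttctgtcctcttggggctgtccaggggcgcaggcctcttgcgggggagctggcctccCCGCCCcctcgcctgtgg
Lrat, chr3:82811351-82811531, minus strand: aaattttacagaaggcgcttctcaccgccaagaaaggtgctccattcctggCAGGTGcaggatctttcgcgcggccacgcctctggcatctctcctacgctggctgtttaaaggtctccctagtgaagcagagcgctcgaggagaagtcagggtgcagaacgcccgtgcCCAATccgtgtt
Col3a1, chr1:45350448-45350628, plus strand: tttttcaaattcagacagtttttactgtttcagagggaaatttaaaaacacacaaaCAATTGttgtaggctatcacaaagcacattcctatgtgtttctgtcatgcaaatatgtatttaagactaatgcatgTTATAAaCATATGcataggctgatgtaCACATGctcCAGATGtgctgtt

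The 3 stretches differed in base composition, with 66.9% G and C for Des, 56.9% for Lrat and 33.1% for Col3a1. Des held 1 E-box and 1 GC box, Lrat 1 E-box and 1 CCAAT box, and Col3a1 4 E-boxes and 2 overlapping matches to TATAA, 1 on each strand. Among the same stretches of 32851 RefSeq promoters an E-box was found in 55.7%, a CCAAT box in 25.2%, a GC box in 21.2%, TATAA in 16.7% and a CArG box in 1.01%. These are matches of letters and say nothing of binding.

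Des encodes desmin, the intermediate filament protein of muscle, which in rodent liver is also a marker of stellate cells. It lies on chromosome 1 of GRCm39 (75320511 to 75345223). Its counts were 55, 56 and 52 in the vehicle libraries and 77, 119 and 101 in the esculetin libraries. As CPM these were 1.87, 1.72 and 1.90 with vehicle and 2.39, 3.43 and 3.02 with esculetin. The vehicle libraries were close to each other, and the lowest esculetin library stood above all of them. The mean rose from 1.83 ± 0.0964 to 2.95 ± 0.522 CPM (SD, n = 3 each), a 1.61-fold change. The log2 fold change was 0.69 with a standard error (SE) of 0.22 (unadjusted p = 0.0114, adjusted p = 0.273, edgeR, quasi-likelihood test, Benjamini-Hochberg adjustment over all genes). Esculetin replicate 2 was the highest library, and without it the log2 fold change was 0.57 and the gene was no longer called (unadjusted p = 0.0514).

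Since muscle also makes desmin, 10 skeletal muscle genes were counted, a list chosen after the values of Des were seen. They summed to 12, 21 and 32 counts in the vehicle libraries and to 25, 41 and 44 counts in the deeper esculetin libraries, or 65 and 110 in all, beside 163 and 297 for Des. The groups overlapped for the list and not for Des. Mylpf, a myosin light chain gene, gave 58 and 88 of these counts, Tnni2, a troponin gene, 2 and 14, and the myosin heavy chain gene Myh4 0 and 5. Tnnt3 had 4 and 0 counts, Myl1 0 and 2 and Ckm 1 in each group, and Acta1, Myh1, Myh2 and Mb were at 0 in all 6 libraries. The part of skeletal or smooth muscle in the Des result was not tested. An antisense gene annotated across Des, Gm15179, had 0 counts.

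Lrat encodes lecithin retinol acyltransferase, which makes the retinyl esters stored in stellate cells, and lies on chromosome 3 (82799886 to 82811288). With vehicle its level was 34.1, 33.7 and 32.0 CPM. With esculetin it was 20.8, 36.7 and 35.6 CPM. A single library, esculetin replicate 1, was far below the other 5, and the other esculetin libraries lay above all vehicle libraries. The means were 33.3 ± 1.12 and 31.0 ± 8.89 CPM, and the log2 fold change of -0.10 (SE 0.18, unadjusted p = 0.597, adjusted p = 0.874, edgeR) was within the spread between libraries. Without esculetin replicate 1 its sign turned, to 0.12 (unadjusted p = 0.203).

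Pdgfrb encodes the beta receptor for PDGF, the main signal for stellate cell division. Its level was 5.62, 5.52 and 6.31 CPM with vehicle and 3.86, 5.48 and 5.37 CPM with esculetin. The highest esculetin library was just under the lowest vehicle library, so the groups did not overlap, but the gap between them was small. The log2 fold change of -0.24 (SE 0.18, unadjusted p = 0.195, adjusted p = 0.630, edgeR) did not pass the test. Without esculetin replicate 1 it was -0.10 (unadjusted p = 0.559).

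Des was also set against Pdgfrb and Lrat inside each library, a description chosen after the values were seen. The ratio of Des to Pdgfrb in CPM was 0.333, 0.311 and 0.301 with vehicle and 0.621, 0.626 and 0.561 with esculetin. The ratio of Des to Lrat was 0.0550, 0.0510 and 0.0593 with vehicle and 0.115, 0.0934 and 0.0847 with esculetin. Both ratios were higher in every esculetin library than in any vehicle library. For Pdgfrb the levels of the pair already fixed this, since Des lay above and Pdgfrb below vehicle in all esculetin libraries, and since both ratios use the values of Des, neither is further support for its call. In esculetin replicate 1 Des, Lrat and Pdgfrb were each the lowest of the group. For comparison, the ratio of Col1a1 to Col1a2, whose products assemble into the same type I collagen molecule, was 0.478 ± 0.0798 with vehicle and 0.409 ± 0.0674 with esculetin (SD, n = 3 each), and the groups overlapped.

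**Figure D2:**
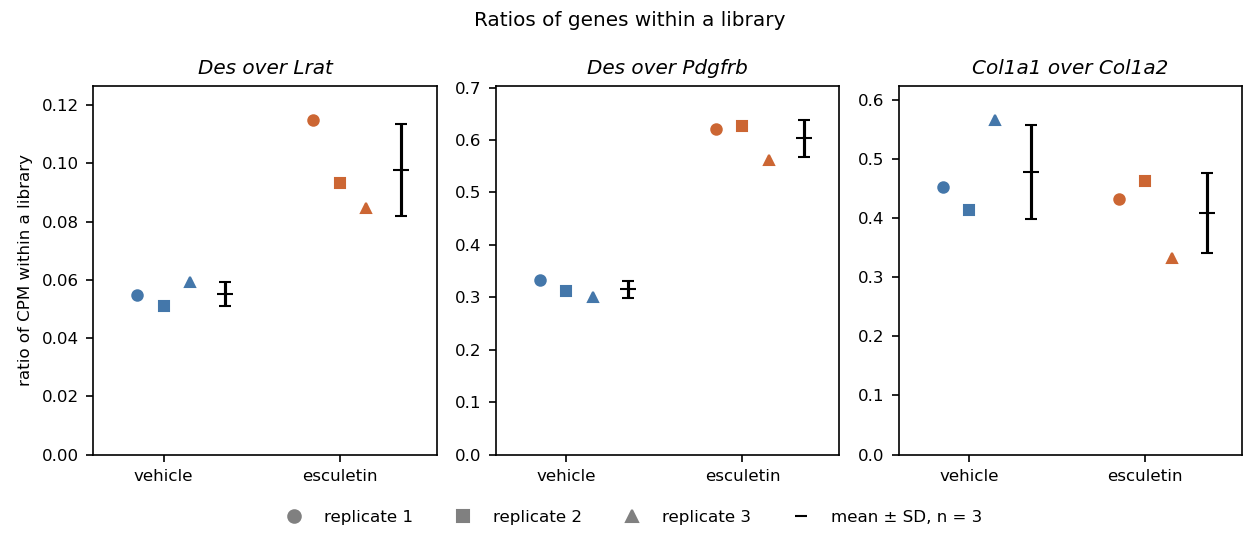
Ratio of the CPM of 2 genes within each library (vertical axis, from 0) for Des over Lrat, Des over Pdgfrb and Col1a1 over Col1a2. Points are libraries and black bars the mean ± SD of 3 libraries; both Des ratios are higher in every esculetin library, with Des over Lrat at 0.0510 to 0.0593 against 0.0847 to 0.115 (for Des over Pdgfrb the levels of both genes fix this order), and the collagen ratio overlaps.

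Acta2 encodes alpha smooth muscle actin, the usual marker of an activated stellate cell, and also marks vessel walls. It lies on chromosome 19 (34217737 to 34232990). It had only 3, 20 and 25 counts with vehicle and 20, 16 and 22 with esculetin, or 0.102, 0.614 and 0.912 CPM and 0.622, 0.461 and 0.657 CPM. The esculetin libraries lay inside the range of the vehicle libraries, whose lowest library was at 3 counts. The log2 fold change was 0.10 with a standard error of 0.60 (unadjusted p = 0.871, adjusted p = 0.969, edgeR), and values from -1.08 to 1.28 lay within 1.96 standard errors, a range that holds a 1.5-fold change in either direction. The biological coefficient of variation of Acta2 was 44.6%, above that of 97.8% of all genes tested. With limma-voom the log2 fold change was 0.51 and with the replicate block 0.28, and neither passed the test. Without vehicle replicate 1 it was -0.39 (unadjusted p = 0.408, edgeR). Stambpl1 overlaps Acta2 on the opposite strand by 301 bases and had 99 counts in all libraries, beside 106 for Acta2, so some reads may belong to either gene.

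The fibrillar collagens are the proteins of scar. Col1a1 lies on chromosome 11 (94827050 to 94843868) and Col1a2 on chromosome 6 (4504814 to 4541555), and together they encode type I collagen. Col1a1 was at 6.71, 5.77 and 11.6 CPM with vehicle and at 4.91, 8.50 and 5.11 CPM with esculetin. Col1a2 was at 14.8, 13.96 and 20.5 CPM with vehicle and at 11.4, 18.4 and 15.3 CPM with esculetin. For both genes vehicle replicate 3 was the highest library and esculetin replicate 1 the lowest, and the groups overlapped.

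Col3a1, which encodes type III collagen of reticular fibres, lies on chromosome 1 (45350698 to 45395840) of GRCm39. With vehicle it was at 33.2, 34.4 and 60.1 CPM. With esculetin it was at 26.7, 42.0 and 36.0 CPM. Vehicle replicate 3 stood well above the other 5 libraries.

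None of the 3 fibrillar collagens passed the test. The log2 fold change of Col1a1 was -0.37 (SE 0.29, unadjusted p = 0.229, adjusted p = 0.658, edgeR). That of Col1a2 was -0.12 (SE 0.19, unadjusted p = 0.533, adjusted p = 0.847, edgeR). That of Col3a1 was -0.28 (SE 0.23, unadjusted p = 0.246, adjusted p = 0.673, edgeR). Single libraries moved these values. Without vehicle replicate 3 the log2 fold change was -0.01 for Col1a1, 0.07 for Col1a2 and 0.05 for Col3a1. Without esculetin replicate 2 that of Col1a1 was -0.67 and the gene was then called (unadjusted p = 0.0455). A fall of Col1a1 by as much as 0.94 or a rise by 0.20 on the log2 scale lay within 1.96 standard errors of its estimate.

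Col4a1 encodes a chain of type IV collagen, the network collagen of basement membranes, which endothelial cells make as well as stellate cells. It lies on chromosome 8 (11248423 to 11362826). With vehicle it was at 23.5, 23.0 and 28.0 CPM. With esculetin it was at 17.7, 21.4 and 20.9 CPM. Every esculetin library lay below every vehicle library. The mean was 24.8 ± 2.74 CPM with vehicle and 20.0 ± 2.0 CPM with esculetin (SD, n = 3 each), 19.4% lower. The log2 fold change of -0.31 had a standard error of 0.11 (unadjusted p = 0.0211, adjusted p = 0.326, edgeR), and the change was under 1.5-fold, so Col4a1 was not called. Without vehicle replicate 3 the p was 0.0950 and without esculetin replicate 1 it was 0.0796, with log2 fold changes of -0.21 and -0.23.

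Col4a2, which encodes the partner chain of type IV collagen, is no member of the list of 10 and was chosen after its values were seen. It starts only 21 bases from Col4a1 in RefSeq, on the opposite strand. It was at 12.6, 16.0 and 20.6 CPM with vehicle and at 10.1, 14.7 and 12.5 CPM with esculetin. The groups overlapped, and its log2 fold change of -0.40 (SE 0.19, unadjusted p = 0.0637, adjusted p = 0.451, edgeR) did not pass the test. The annotations of the pair overlap by 356 bases, and without knowledge of strand in the counting their reads there cannot be told apart.

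**Figure D3:**
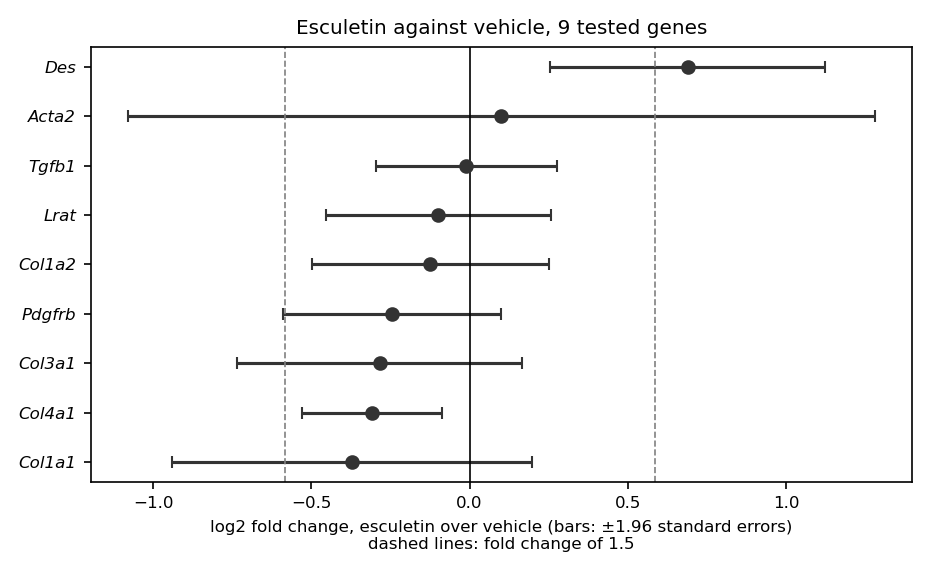
Log2 fold change of esculetin over vehicle for the 9 genes tested (horizontal axis), sorted by size, with bars of 1.96 standard errors on each side. Dashed lines mark a 1.5-fold change; the bars of Des (0.69) and Col4a1 (-0.31) do not reach 0, and that of Acta2 is the widest.

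Tgfb1 encodes TGF-β1, the cytokine that drives collagen synthesis in activated stellate cells, and lies on chromosome 7 (25386390 to 25404506). It was at 5.79, 5.16 and 5.76 CPM with vehicle and at 6.0, 5.48 and 5.11 CPM with esculetin. The groups overlapped almost wholly. The means were 5.57 ± 0.358 and 5.53 ± 0.449 CPM, and the log2 fold change was -0.01 (SE 0.15, unadjusted p = 0.947, adjusted p = 0.989, edgeR). Changes from -0.30 to 0.28 lay within 1.96 standard errors, so a 1.5-fold change in either direction was outside this range.

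Timp1 encodes an inhibitor of matrix metalloproteinases that rises early in liver injury. It lies on chromosome X (20736316 to 20740976), inside the gene Syn1 on the opposite strand. It had 4, 8 and 4 counts with vehicle and 6, 6 and 4 with esculetin, or 0.119 to 0.246 CPM over all libraries. This is close to the floor of 3 counts per library, and a difference in Timp1 was not tested in the main fit.

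Per kilobase of exon, the order of the mean levels over all 6 libraries was Lrat (6.0 CPM per kb), Col3a1 (3.77), Col4a1 (3.00), Col1a2 (1.24), Tgfb1 (1.09), Col1a1 (1.08), Pdgfrb (0.662), Des (0.464), Acta2 (0.174) and Timp1 (0.0857). On this scale the vitamin A gene was thus the highest of the list and the marker of activation and the protease inhibitor were the lowest. Among neighbours in this order, the ranges over libraries were apart only between Col4a1 and Col1a2 and between Des and Acta2. Lrat nevertheless stood above Col3a1, and Col3a1 above Col4a1, in each of the 6 libraries on this scale. The exon length joins the exons of all annotated transcripts of a gene, and the order of Lrat and Col3a1 depends on it. In CPM the mean over all libraries was 38.7 for Col3a1 and 32.1 for Lrat.

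Libraries of a group differed from each other in the same sense for many of these genes. Vehicle replicate 3 was the highest vehicle library for 7 of the 9 genes tested, and esculetin replicate 1 was the lowest esculetin library for 7 of the 9. Over all genes tested, each of these held for 34.6%. On the log2 scale Col1a1 lay 0.59, Col3a1 0.55 and Col1a2 0.34 above the vehicle mean in vehicle replicate 3. In esculetin replicate 1, Lrat lay 0.53, Col1a2 0.37, Col3a1 0.36 and Pdgfrb 0.32 below the esculetin mean, as deviations of -0.53, -0.37, -0.36 and -0.32.

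Both libraries also stood apart in lists of other genes. Esculetin replicate 1 was the lowest of its group for 19 of 27 stellate cell markers and 10 of 14 endothelial markers. It was also the lowest for 13 of 20 other collagen chains, 18 of 28 other matrix proteins and 7 of 11 portal and mesothelial markers. For hepatocyte and lymphocyte markers it was the lowest for only 2 of 10 and 1 of 7. Vehicle replicate 3 was the highest of its group for all 11 Kupffer cell markers, 7 of 10 hepatocyte markers, 13 of 20 other collagen chains, 15 of 23 collagen processing genes and 19 of 28 other matrix proteins, but for only 8 of 27 stellate cell markers. The Kupffer cell markers summed to 523 CPM in vehicle replicate 3 and to 393 to 424 CPM in the other 5 libraries. What part these cells had in the collagen values was not tested.

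**Figure D4:**
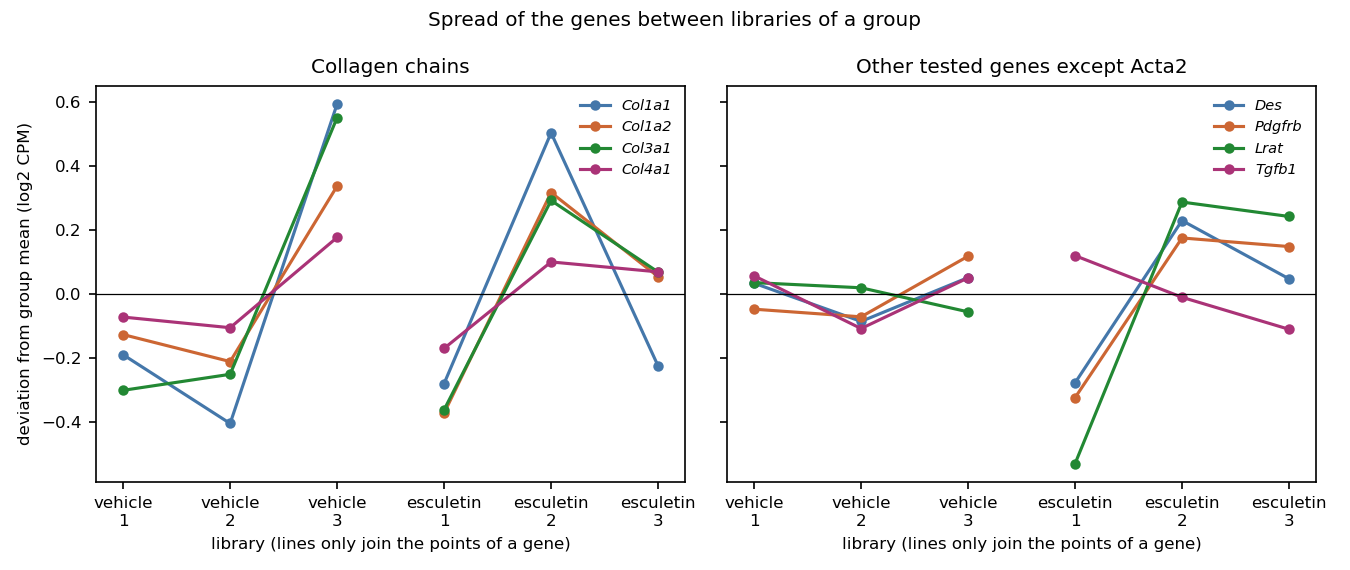
Deviation of each gene from the mean of its own group (vertical axis, log2 CPM) in each of the 6 libraries (horizontal axis), for the collagen chains on the left and for Des, Pdgfrb, Lrat and Tgfb1 on the right. Lines only join the points of a gene; all 4 collagens are highest of the vehicle group in replicate 3, and 7 of the 8 genes, all but Tgfb1, are lowest of the esculetin group in replicate 1.

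The members were set beside 16 lists of related genes and cell type markers. Of their 225 distinct genes tested 5 were called, beside 3.13% of all genes tested. With DESeq2 6 of these listed genes were called and with limma-voom 3. None of them had an adjusted p under 0.05 with edgeR. An unadjusted p under 0.05 was reached by 16 of them, beside 11.9% of all genes tested.

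Other collagen chains were lower more often than higher, but 0 of 20 were called (1 with p under 0.05, median log2 fold change -0.10). Those with the highest CPM were Col18a1, a basement membrane collagen, at 531, 621 and 533 CPM with vehicle and 585, 538 and 514 CPM with esculetin, and Col14a1, a fibril-associated collagen, with a log2 fold change of -0.12 (unadjusted p = 0.461, edgeR). Col27a1, singled out after its values were seen, was at 51.3, 49.4 and 40.8 CPM with vehicle and at 30.4, 37.8 and 27.5 CPM with esculetin. Its groups did not overlap, and its log2 fold change of -0.57 (SE 0.13, unadjusted p = 0.00155, adjusted p = 0.168, edgeR) fell just short of 1.5-fold.

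Among genes of collagen processing and crosslinking, 0 of 23 were called and 0 had a p under 0.05 (median 0.05). P4hb, a subunit of prolyl hydroxylase, had a log2 fold change of 0.06 (unadjusted p = 0.507, edgeR), and Mia3, which loads procollagen for export, 0.07 (unadjusted p = 0.320, edgeR). Of 28 other matrix proteins 0 were called (2 with p under 0.05, median -0.02). Those with the highest CPM were the plasma proteins Vtn (vitronectin, 0.05) and Fn1 (fibronectin, -0.02), which hepatocytes make. Matrix proteases and their inhibitors had 0 of 16 called and 0 with a p under 0.05 (median -0.11), with Mmp19 at -0.10 and Mmp15 at -0.16.

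For the TGF-β pathway 0 of 29 genes were called (median -0.05), and 4 had a p under 0.05, all lower with esculetin. Over all genes tested 11.9% had a p under 0.05 in either direction. These 4, named after their values were seen, were the receptor genes Tgfbr1 (log2 fold change -0.21, unadjusted p = 0.0265) and Acvrl1 (-0.58, unadjusted p = 0.0118), the transcriptional repressor gene Skil (-0.44, unadjusted p = 0.00867) and the ubiquitin ligase gene Smurf1 (-0.31, unadjusted p = 0.00968), all from edgeR with adjusted p-values from 0.256 to 0.354. Skil and Smurf1 are known as negative regulators of the pathway, and Tgfbr1 as its signalling receptor. Highest in CPM were Furin, a protease that processes the TGF-β precursor (0.03, unadjusted p = 0.706), and Smurf2 (-0.15, unadjusted p = 0.140).

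PDGF ligands and receptors other than Pdgfrb had 0 of 5 called and 0 with a p under 0.05 (median -0.05). Pdgfa, a ligand, had a log2 fold change of -0.28 (unadjusted p = 0.222), and Pdgfra, the alpha receptor of fibroblasts, -0.25 (unadjusted p = 0.191). Contractile and smooth muscle genes had 0 of 10 called (median -0.06). Their summed level was 401 to 446 CPM with vehicle and 353 to 386 CPM with esculetin, so the groups did not overlap, and Cald1 gave most of it. Cald1, which encodes the actin-binding protein caldesmon, had the highest CPM of them and was the one with a p under 0.05, at 309, 328 and 294 CPM with vehicle and at 252, 272 and 282 CPM with esculetin (log2 fold change -0.21, SE 0.0795, unadjusted p = 0.0269, adjusted p = 0.355, edgeR). Mylk, the myosin light chain kinase gene, had -0.13 (unadjusted p = 0.152). None of the 10 had an unadjusted p under 0.05 in the direction of Des with edgeR, and a difference between Des and the list was not tested.

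Of 27 stellate cell markers 0 were called and 0 had a p under 0.05 (median -0.02, 13 higher and 14 lower). Their summed level was 1115 to 1272 CPM with vehicle and 1083 to 1257 CPM with esculetin. Tlcd4 (formerly Tmem56) had a log2 fold change of 0.05 (unadjusted p = 0.606) and Cxcl12, a chemokine gene, -0.06 (unadjusted p = 0.681, both edgeR). With Steap4, these genes gave the largest shares of the sum. Their means over all libraries were 371 CPM for Cxcl12, 260 CPM for Tlcd4 and 168 CPM for Steap4.

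Of 8 tested genes of retinoid handling 1 was called and 2 had a p under 0.05. The median was 0.52, with 6 higher and 2 lower, and the change of largest size was that of Pnpla3, a lipase gene named after its values were seen, at -1.20 (unadjusted p = 0.128). Cyp26b1, which encodes a retinoic acid hydroxylase, was called. It was at 3.98, 3.44 and 2.84 CPM with vehicle and at 3.48, 9.80 and 5.91 CPM with esculetin. The groups overlapped through esculetin replicate 1, and the log2 fold change was 0.90 (SE 0.33, unadjusted p = 0.0207, adjusted p = 0.325, edgeR). Aldh1a1, a retinaldehyde dehydrogenase gene that hepatocytes express strongly, was singled out after its values were seen. It was at 845, 655 and 636 CPM with vehicle and at 1064, 891 and 887 CPM with esculetin. Its groups did not overlap and its log2 fold change was 0.41 (unadjusted p = 0.00766, adjusted p = 0.252, edgeR), under 1.5-fold. Stra6, the gene of a retinol transporter, was at 0 in all libraries.

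Portal fibroblast and mesothelial markers, which mark the other collagen-producing cells of the liver, had 10 of 11 genes higher with esculetin and a median of 0.41. Over all genes tested 6993 of 14433 were higher. Of the 11 markers 1 was called, 1 had a p under 0.05 and 1 had groups that did not overlap. Over all genes tested these shares were 3.13%, 11.9% and 17.4%. The summed level of the markers was 20.7 to 25.1 CPM with vehicle and 23.1 to 33.7 CPM with esculetin, and the ranges overlapped. Msln, the mesothelin gene, was called. It was at 2.79, 2.92 and 2.44 CPM with vehicle and at 2.67, 4.70 and 5.14 CPM with esculetin (log2 fold change 0.62, SE 0.25, unadjusted p = 0.0353, adjusted p = 0.381, edgeR). Its high libraries were esculetin replicates 2 and 3, in which Des was also highest. Esculetin replicate 1 was the lowest of its group for 7 of the 11 markers and for 34.6% of all genes tested. The part of mesothelial or portal cells in the Des result was not tested.

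**Figure D5:**
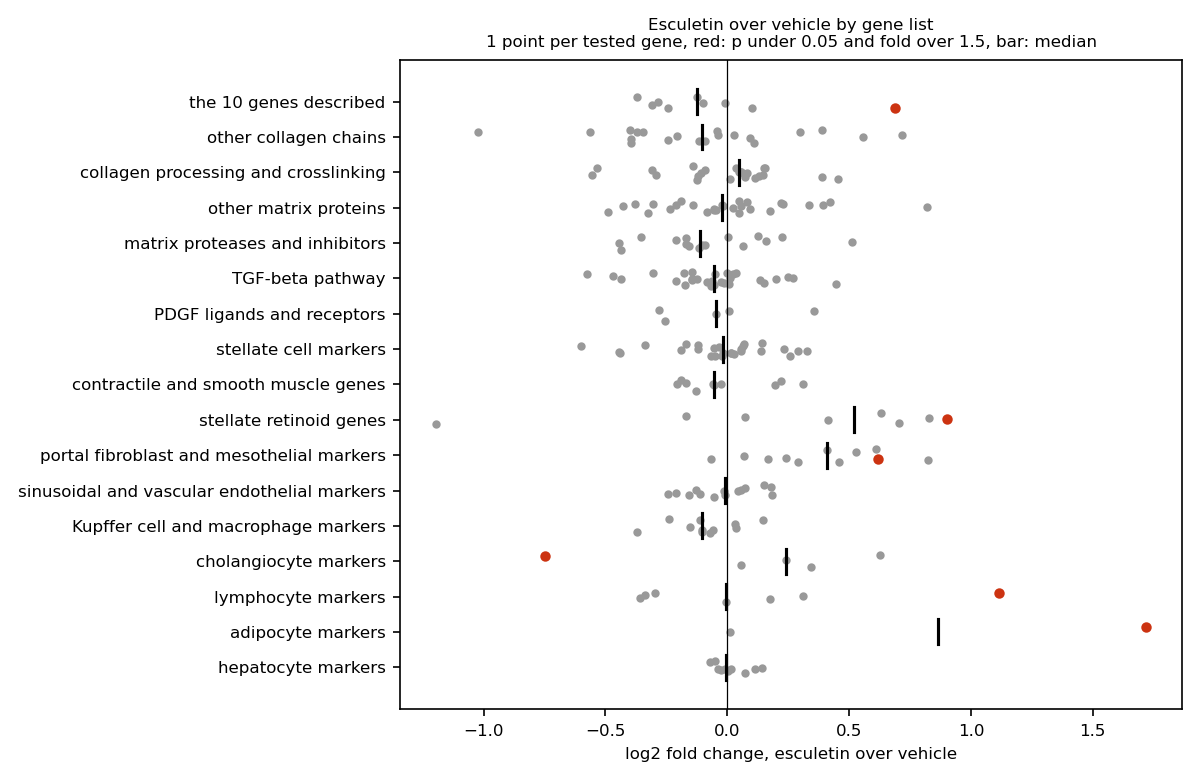
Log2 fold change of esculetin over vehicle (horizontal axis) for each tested gene of the 10 described and of the 16 other lists (rows). Red points passed p under 0.05 and a fold change over 1.5 and bars are list medians; 1 red point is Des, the others are Cyp26b1, Msln, Spp1, Cd79a and Cfd, and the retinoid and the portal and mesothelial lists have medians of 0.52 and 0.41.

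Markers of further cell types were counted in the same way. Sinusoidal and vascular endothelial markers had 0 of 14 called and 0 with a p under 0.05, with sums of 456 to 527 CPM (vehicle) and 483 to 547 CPM (esculetin). Dpp4 had a log2 fold change of 0.07 and Ptprb one of -0.01, the genes with the highest CPM of the list. Kupffer cell markers had 0 of 11 called and 1 with a p under 0.05, Cd68 (-0.37, unadjusted p = 0.0225), named after its values were seen, which was lower in every esculetin library than in any vehicle library. The genes with the highest CPM were Clec4f (-0.10) and Cd5l (-0.07). Their sums were 393 to 523 CPM and 411 to 424 CPM. Cholangiocyte markers summed to 39.7 to 80.8 CPM with vehicle and 30.7 to 45.9 CPM with esculetin, and 1 of 5 was called. The median was 0.24, with 4 higher and 1 lower, and the lower gene gave most of the sum (34.7 of 39.7 CPM in vehicle replicate 1). This was Spp1, the osteopontin gene, at 34.7, 57.7 and 75.5 CPM with vehicle and at 39.1, 23.7 and 37.3 CPM with esculetin (-0.75, unadjusted p = 0.0174, adjusted p = 0.309, edgeR). Lymphocyte markers summed to 16.3 to 17.5 CPM and 13.8 to 16.0 CPM, with 1 of 7 called, Cd79a (1.12, unadjusted p = 0.0422), and 2 with a p under 0.05. The other was Ptprc, the CD45 gene, named after its values were seen, which was lower in every esculetin library than in any vehicle library (-0.30, unadjusted p = 0.0201). Adipocyte markers summed to 8.75 to 13.0 CPM and 11.1 to 13.5 CPM, with Lep at 0 in all libraries and 1 of 2 called, Cfd (1.72, unadjusted p = 0.0397), which was at 0 in 1 vehicle library. Hepatocyte markers had 0 of 10 called and 0 with a p under 0.05, with the genes of the highest CPM, Alb and Trf, at -0.05 and -0.02.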

How the data were processed

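Liver libraries from 3 vehicle and 3 esculetin pools of mice were used. Count columns were matched to samples by the group and number in their names. Paired-end reads had been aligned with HISAT2 2.2.1 and summed over genes by featureCounts, and the authors deposited raw counts. The paper names GRCm39, and the submitters' processing notes name GRCm39 and mm10. The annotation release and the strand setting are not given in the sources used here, so counts of overlapping and antisense genes are uncertain.

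Symbols, positions and exon lengths came from GENCODE M39 (GRCm39), which held 54749 of the 55357 identifiers. After filterByExpr and TMM scaling (factors 0.979 to 1.02), edgeR 4.0.16 (R 4.3.3) was used for a quasi-likelihood test of esculetin against vehicle, and p-values were adjusted after Benjamini and Hochberg over 14433 genes. Standard errors are the log2 fold change over the square root of F. Alternatives were DESeq2 1.42.0, limma-voom (limma 3.58.1), other scalings, no filter, each library left out, a replicate block and an adjusted-p rule. The script was tested on simulated data. With 3 against 3 an exact permutation test of a single gene cannot go below p = 0.1, so none is given. Between libraries of 1 group chi-square per gene was at least 26.2, so none was a copy of another.

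The 10 genes, the other lists and the tests were chosen with earlier results of these data known. From each list the called genes were named (at most 6), or otherwise the 2 with the highest mean CPM, with further genes said to be chosen after their values were seen. Floors cover counting error only. P-values measure the spread between libraries that each pool 2 mice.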

Additional observations from a re-analysis of the deposited data

How the results depend on the processing

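The call of Des and its direction held with DESeq2, limma-voom, both other scalings, no filter and the replicate block (log2 fold change 0.67 to 0.70) and in 5 of 6 fits without 1 library. Its loss without esculetin replicate 2, where Col1a1 was called instead, kept the count of members called at 1. With an adjusted p under 0.05 as the rule, 0 of the 10 genes, 0 listed genes and 6 of all genes were called. With 1 library left out, log2 fold changes ran from -0.30 to 0.066 for Col1a2, -0.44 to 0.048 for Col3a1, -0.072 to 0.046 for Tgfb1, -0.24 to 0.12 for Lrat and -0.39 to 0.67 for Acta2, so these 5 signs turned. They did so without vehicle replicate 3 (Col1a2, Col3a1, Tgfb1 at 0.017), esculetin replicate 1 (Col1a2 at 0.041, Lrat), vehicle replicate 1 (Acta2, Tgfb1 at 0.019) and esculetin replicate 3 (Tgfb1), and Tgfb1 was at 0.0014 with no filter. With no filter Col3a1 had unadjusted p = 0.0269 (log2 fold change -0.27) and was not called. The cause was not tested. Genes called numbered 452 in all, 776 with no filter, and 411 to 588 with 1 library left out. Genes with an adjusted p under 0.05 numbered 6, but 193 with DESeq2, 477 with no filter and 2 to 45 with 1 library left out. Listed genes called numbered 5, but 3 with limma-voom, 9 with no filter and 5 to 8 with 1 library left out. Listed genes with an adjusted p under 0.05 numbered 0, but 1 with DESeq2 (Col27a1) and 5 with no filter.

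Same-numbered libraries did not deviate together over all genes tested (correlations of -0.069, -0.011 and 0.0027). These correlations run over all genes, so they cannot show whether part of the genes share a batch by number. With the replicate block 399 genes and 1 member were called, 4 listed genes were called, 15 genes had an adjusted p under 0.05, and the log2 fold change of Des was 0.68 (unadjusted p = 0.0233). Depth limits Timp1 (32 counts in all).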

Other observations

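The genes most like the fibrillar collagens were ranked by Pearson's r over the 6 libraries, between a gene's deviations from its group means and the mean scaled deviation of Col1a1, Col1a2 and Col3a1, among 12178 genes with at least 1 CPM. With 6 libraries in 2 groups few free values remain, and 219 genes (1.80%) reached 0.9, so these values are a description only and share the depth of the same libraries. The gene ranked highest was Col5a2 (0.998), which encodes a chain of type V collagen, a minor component of type I fibrils. It was followed by Cachd1 (0.995), Tm9sf4 (0.995), Gm49602 (0.994), the mitochondrial ribosomal RNA gene mt-Rnr2 (0.991), Anapc16 (0.991), Bco1 (0.991) and Gch1 (0.990). Spearman's rho was 0.943 or 1 for each of these 8 genes. Col4a1 had an r of 0.952 with the same measure, while Pdgfrb had 0.791, Des 0.752, Lrat 0.483 and Tgfb1 -0.0033.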
